A study of Drosophila melanogaster with 2 samples.

Results

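Of 2841 regions bound by tagged peb in Drosophila embryos, 311 lay between genes and away from promoters (10.9%, exact binomial 95% interval 9.82 to 12.2%). A peak was taken from the joint thresholded list when its summit, on the 7 main chromosomes, fell outside every gene of the Ensembl BDGP6 annotation. It also had to lie more than 1000 bp from the transcription start site (TSS) of any protein-coding transcript and more than 1000 bp from any gene of the biotype ncRNA. There were 1043 summits outside genes, 361 of them beyond the TSS margin, and 50 of those were left out for a nearby ncRNA gene. The rule used position alone, so signal, replicate support and sequence were free to vary, while a TSS distance over 1000 bp is fixed by it. The chromatin came from whole embryos collected at 0 to 24 h from a strain called peb-GFP, which carries a peb-eGFP fusion, and was precipitated with an antibody against GFP after sonication to fragments of 200 to 800 bp. The 2 biological replicates form 1 group, and no untagged or mutant group was analysed here. All tissues of the embryo were mixed, so more cells with binding and more binding per cell cannot be told apart.

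The pebbled gene, also called hindsight, encodes a large zinc finger transcription factor related to mammalian RREB1. In the fly embryo it is known for its role in the amnioserosa, the extraembryonic epithelium needed for germ band retraction and dorsal closure, and it also acts in the midgut, trachea and nervous system. Sequences far from promoters often hold enhancers or silencers in the fly, and genes of developmental regulators tend to lie in long stretches of non-coding DNA. A ChIP-seq peak shows where the tagged protein or its partners were crosslinked and does not show which gene, if any, the site regulates.

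A short sequence recurred beside the summits. The 8-mer CACTGAGA, with TCTCAGTG on the other strand, lay within 100 bp of the summit in 32 of the 311 intergenic peaks (10.3%, 95% interval 7.15 to 14.2%), against 1 of 597 windows of 201 bp centred 1000 bp to either side and free of peaks (0.168%). It was chosen after its values were seen, as the one of 32896 distinct 8-mers with the largest difference between the summit windows and these flanking windows, so that difference is a description. Sequences of 61 bases around it are printed for 10 of the 32 peaks, each with a thresholded peak in both replicates, to show what they share and where they differ. They are read 5′ to 3′ on the strand that holds CACTGAGA, from the RefSeq genome of the dm6 assembly, with the 8-mer in capitals and each line named by the pair of coding genes that flank the peak.
slp1 to slp2, chr2L:3832542-3832602, minus strand: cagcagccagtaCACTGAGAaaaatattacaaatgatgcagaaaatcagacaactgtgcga
CG7320 to CheA75a, chr3L:18236062-18236122, minus strand: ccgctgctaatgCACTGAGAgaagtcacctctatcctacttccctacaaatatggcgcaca
noc to CG33648, chr2L:14502692-14502752, plus strand: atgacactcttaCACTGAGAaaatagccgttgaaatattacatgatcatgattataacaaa
CG10357 to CG14974, chr3L:3617336-3617396, plus strand: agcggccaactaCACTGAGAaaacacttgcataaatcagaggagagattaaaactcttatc
hng3 to CG13898, chr3L:762551-762611, minus strand: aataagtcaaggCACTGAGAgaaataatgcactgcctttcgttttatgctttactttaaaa
drl to CG31797, chr2L:19226451-19226511, minus strand: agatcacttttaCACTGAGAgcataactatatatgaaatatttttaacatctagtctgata
Ca-beta to ab, chr2L:11209050-11209110, plus strand: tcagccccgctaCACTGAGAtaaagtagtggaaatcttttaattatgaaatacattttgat
Cad89D to Gr89a, chr3R:16497590-16497650, plus strand: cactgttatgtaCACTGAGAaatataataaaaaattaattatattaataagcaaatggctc
CG4218 to CG3473, chr2L:14554112-14554172, minus strand: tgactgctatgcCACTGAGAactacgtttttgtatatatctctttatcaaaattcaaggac
ems to Art9, chr3R:13914953-13915013, minus strand: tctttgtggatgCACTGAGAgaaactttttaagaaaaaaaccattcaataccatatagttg

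These 10 windows came from separate gaps between genes, and their sequences differed apart from a few positions close to the 8-mer. Over the 34 occurrences in the 32 windows, the 3 bases from the second after the 8-mer were A in 91.2%, 88.2% and 79.4%, and the second base before it was T in 70.6%. The first base after it was G in 55.9% and the first before it A or G in 44.1% and 47.1%. Farther out, no base stood at a position in more than 50% of the occurrences, over 12 bases before the 8-mer and 20 after it. The 32 peaks lay in 31 gaps on 5 chromosomes. A median of 20.1% of their window was soft-masked as repeat, against 18.4% in the other 279 intergenic windows. The 8-mer occurred 4369 times on the main chromosomes, so the 34 occurrences at intergenic summits were a small part of all its copies.

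The position of the 8-mer was not used in choosing it. Read on its own strand, the summit lay 3′ of it in 31 of 34 occurrences at intergenic peaks (91.2%, 95% interval 76.3 to 98.1%), with its middle at a median of 54.5 bp before the summit. Genic peaks away from promoters gave 61 of 67 (91.0%, 81.5 to 96.6%) with a median of 58.5 bp before it, and promoter peaks 28 of 32 (87.5%, 71.0 to 96.5%) with a median of 60 bp. The 8-mer was on the plus strand in 17 of the 34 intergenic occurrences. It therefore stood mostly on one side of the summit in all 3 classes, whichever genomic strand held it. Its share of windows was 10.3% at intergenic peaks, 6.90% (5.38 to 8.70%) at genic peaks away from promoters and 2.10% (1.44 to 2.95%) at promoter peaks, and 0.728% of 145641 tiles of 201 bp that cover the sequence the rule allows. The intervals of intergenic and promoter peaks did not overlap, and those of intergenic and genic peaks did. The intergenic share was used in choosing the 8-mer, and the genic and promoter shares were not. Their comparison is therefore also only a description. Intergenic peaks with the 8-mer had a median signal of 77.0 (95% interval 58.6 to 98.3), against 70.9 (65.2 to 74.6) for those without it, and the intervals overlapped.

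**Figure D1:**
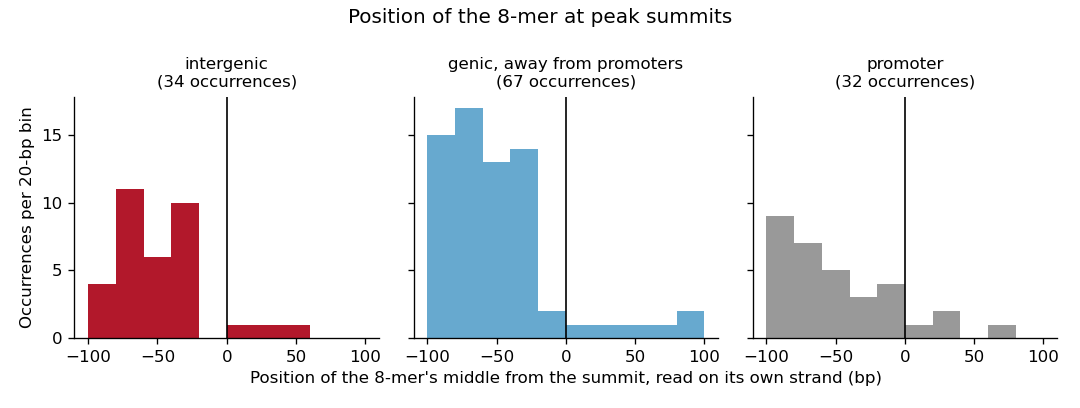
Position of the 8-mer's middle relative to the summit, in bp read on the 8-mer's own strand, in intergenic peaks, genic peaks away from promoters and promoter peaks, as occurrences per 20-bp bin. In each class most occurrences lie left of the summit (31 of 34, 61 of 67 and 28 of 32).

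All 6-mers were compared between summit windows and flanking windows in the same way, with both strands counted as 1, which gives 2080 distinct ones. The 5 with the largest difference in share were AAAAAT (58.5% of intergenic windows, against 38.0% of flanking windows), AAAATA (53.7%, against 34.8%), ACAGTG (22.2%, against 5.53%), GAGAAA (30.5%, against 14.7%) and AAAGTA (30.5%, against 14.9%). Of these, ACAGTG is the only one with all 4 bases, and it was held by 6.96% of the tiles. Its share at the other summits was 23.1% for genic peaks away from promoters and 19.95% for promoter peaks, and both lie inside the interval of the intergenic peaks, 17.7 to 27.2%. At intergenic peaks the summit lay 3′ of ACAGTG in 64 of 83 occurrences (77.1%, 66.6 to 85.6%). ACAGTG and the 8-mer shared 2 intergenic windows, which is 2.90% of the 69 windows with the 6-mer and 6.25% of the 32 with the 8-mer. A total of 99 intergenic windows (31.8%) held either. The other strand of ACAGTG is CACTGT, so both sequences hold CACTG, but the summit lay mostly 3′ of it in CACTGAGA and mostly 5′ of it in CACTGT.

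The whole sequence of 5 of the strongest intergenic peaks is printed to show the setting of the 6-mer in a peak, with ACAGTG or CACTGT in capitals. All are dm6 plus-strand sequence from RefSeq.
COX7AL2 to CG31668, chr2L:2202277-2202538, plus strand: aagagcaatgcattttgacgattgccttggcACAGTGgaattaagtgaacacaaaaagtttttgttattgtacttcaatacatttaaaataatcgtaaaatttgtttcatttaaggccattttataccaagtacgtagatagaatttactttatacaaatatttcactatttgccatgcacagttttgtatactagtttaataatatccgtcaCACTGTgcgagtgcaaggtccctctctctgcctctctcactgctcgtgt
RFeSP to chinmo, chr2L:1638665-1638875, plus strand: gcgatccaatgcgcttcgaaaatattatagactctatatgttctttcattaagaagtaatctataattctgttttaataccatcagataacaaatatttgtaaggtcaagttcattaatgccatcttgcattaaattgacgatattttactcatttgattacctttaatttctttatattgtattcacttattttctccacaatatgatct
CG13896 to hng3, chr3L:724631-724812, plus strand: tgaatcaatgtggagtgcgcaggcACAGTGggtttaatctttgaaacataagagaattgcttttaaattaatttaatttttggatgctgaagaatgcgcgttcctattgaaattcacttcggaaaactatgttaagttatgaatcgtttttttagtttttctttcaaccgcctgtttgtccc
slp1 to slp2, chr2L:3832412-3832595, plus strand: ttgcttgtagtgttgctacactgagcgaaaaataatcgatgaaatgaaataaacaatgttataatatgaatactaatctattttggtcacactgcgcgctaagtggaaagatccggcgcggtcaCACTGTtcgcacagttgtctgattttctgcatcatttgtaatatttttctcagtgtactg
CG43131 to RabGGTa, chr3R:5113172-5113332, plus strand: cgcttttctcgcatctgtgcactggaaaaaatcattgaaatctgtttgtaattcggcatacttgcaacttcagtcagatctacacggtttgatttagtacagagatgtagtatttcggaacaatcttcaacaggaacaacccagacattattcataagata

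In the peak between COX7AL2 and CG31668 there were 2 copies, 1 towards each end and on opposite strands, with AT-rich sequence between them. The peaks beside slp1 and hng3 held 1 copy each, and those beside chinmo and RabGGTa held none. The GC content of these 5 peaks ran from 27.0% beside chinmo to 37.5% between slp1 and slp2.

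Base composition dipped at the summit. Intergenic summit windows had a median GC content of 35.8% (95% interval 34.8 to 36.8%), against 42.3% (41.3 to 42.8%) in the flanking windows and 41.3% in the tiles. Promoter peaks had 34.8% and genic peaks away from promoters 35.3%, so the low GC content was not particular to intergenic peaks. In 40-bp bins the mean GC content of intergenic peaks was lowest, 33.95%, just before the summit and was 46.4% at 180 bp on either side. Its part in the shares of the A-rich 6-mers named above was not tested.

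**Figure D2:**
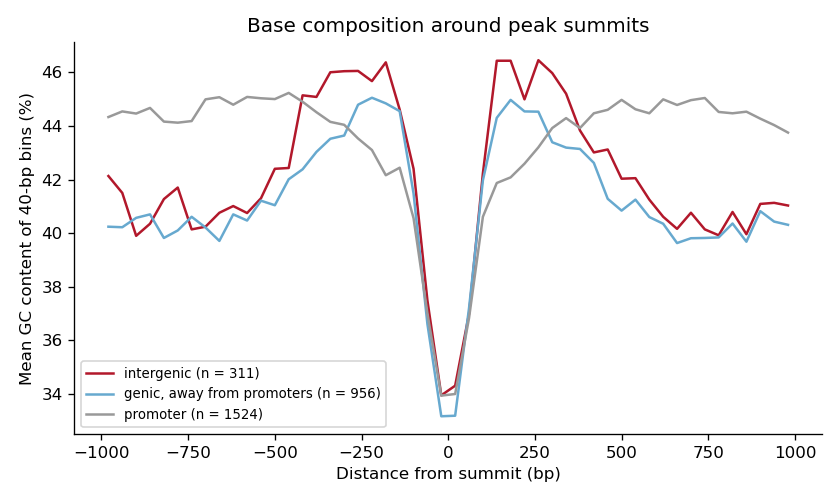
Mean GC content in 40-bp bins against distance from the summit in bp, for 311 intergenic peaks, 956 genic peaks away from promoters and 1524 promoter peaks. All 3 lines fall to about the same low at the summit (33.95%, 33.17% and 33.94% in the lowest bin).

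Known core motifs were searched on both strands of the same windows, and 20 patterns were tried. CGATA, the core of the boundary protein BEAF-32, was held by 19.0% of intergenic windows (95% interval 14.8 to 23.8%) and 31.2% of promoter windows, with 19.6% of tiles. TATCGATA, the site of the promoter factor DREF, which contains CGATA, was held by 1 of 311 intergenic windows (0.322%) and 4.72% of promoter windows, with 0.400% of tiles. GGTCACAC, from the site of the promoter factor M1BP, was held by 1 of 311 (0.322%) and 2.30% of promoter windows, with 0.262% of tiles. At genic peaks away from promoters the shares were 18.8% for CGATA, 0% for TATCGATA and 0.314% for GGTCACAC. Shares below those of promoter peaks were thus not particular to intergenic peaks. GAGAG, bound by the GAGA factor, was held by 24.4% of intergenic windows and 19.6% of flanking windows, with overlapping intervals, and 20.6% of tiles. The E-box CANNTG, bound by basic helix-loop-helix proteins, was held by 57.6% (51.9 to 63.1%) against 68.5% (64.6 to 72.2%) in the more GC-rich flanking windows and 61.8% of tiles. CAGGTA, bound by the early embryonic factor Zelda, was held by 4.82% against 3.69%, and 4.18% of tiles. The pair of cores tried for RREB1, CCACCCC and AAACCAC, were each held by 10 of 311 windows (3.22%), against 4.19% and 4.02% of flanking windows and 2.38% and 2.75% of tiles.

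For the remaining 12 patterns the intervals of intergenic and flanking windows overlapped. These shares were 4.50% against 4.02% for TGANTCA (AP-1), 5.47% against 6.53% for CAGGTG (Snail), 11.3% against 15.9% for TGGGAA (Su(H)) and 14.1% against 13.9% for AGATAA, the core of the GATA factors. They were 15.1% against 17.8% for CACACA, 3.86% against 2.18% for GGCGCC (Brinker), 4.82% against 6.03% for ACCNGTT (Grainy head) and 13.5% against 15.1% for TAATTA (homeodomains). They were 26.7% against 24.5% for TTTATG (Caudal), 7.07% against 8.88% for CATATG (Twist), 1.29% against 1.17% for AGGTGGC (CTCF) and 24.4% against 18.1% for AAAAAAA. Both CAGGTG and CATATG are also E-boxes. Over these 12 the tile shares ran from 1.86% for AGGTGGC to 23.2% for TTTATG. Among them AAAAAAA alone had a tile share, 17.6%, outside the interval of intergenic windows, 19.8 to 29.6%. It was held by 24.2% of promoter windows and 27.0% of windows at genic peaks away from promoters. A match says only that the letters are present.

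The peak signal was the authors' value for each peak and is used here only to rank peaks within a list. Intergenic peaks had a median signal of 71.0 (95% interval 65.2 to 74.7; range 3.24 to 667), against 74.3 (72.5 to 76.2) for the other 2530 peaks. Genic peaks away from promoters had a median of 70.5 and promoter peaks one of 77.3. Among the 100 strongest peaks of the list were 4 intergenic ones, which is 1.29% of the 311 (0.352 to 3.26%), against 3.79% (3.08 to 4.61%) of the other peaks. The medians were close, and the intervals of the shares among the 100 strongest overlapped slightly.

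Replicate support varied widely among the members. A thresholded peak of both replicates overlapped 107 of the 311 (34.4%, 29.1 to 39.98%), where 40.8% of all 2841 peaks were so supported. The share was 41.6% (39.7 to 43.6%) for the other peaks, 45.4% for promoter peaks and 35.3% for genic peaks away from promoters. Replicate 1 alone supported 27 (8.68%), where it did so for 7.18% of all peaks, and replicate 2 alone 94 (30.2%), where it did so for 28.1%. A thresholded peak of neither overlapped 83 (26.7%), where 23.9% of all peaks had none. These last 3 shares were near those of all peaks. The conservative list held a peak overlapping 261 (83.9%), where it did so for 84.7% of all peaks. Joint signal and replicate calls come from the same 2 libraries, so a link between them is partly built in. Support followed signal: the 39 strongest members all overlapped a peak of both replicates. Median signal was 114 with both, 63.8 with replicate 1 alone, 64.8 with replicate 2 alone and 52.2 with neither. Most members (304 of 311) also overlapped a call in both replicates' longer ranked lists, as did 2487 of the 2530 other peaks. On the main chromosomes these lists held 68162 peaks for replicate 1 and 49560 for replicate 2. Overlap with lists of this length was not counted as replicate support. Over the 304 members the 2 signal values had a Spearman rho of 0.58, against 0.67 over the 2487 other peaks. These points share the 2 libraries and the selection by the joint list.

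**Figure D3:**
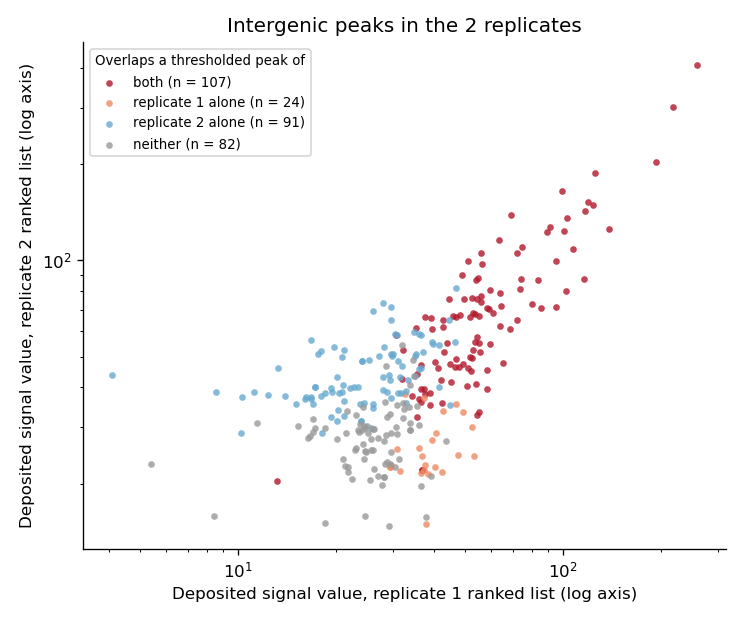
Deposited signal value of intergenic peaks in the ranked list of replicate 2 against that of replicate 1, both on log axes, for the 304 members in both lists, coloured by which replicate's thresholded list holds an overlapping peak. Members supported by both replicates reach the highest values on both axes, and the others crowd at the low end.

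The weakest members overlapped stronger ones. Among the lowest were those from CG14551 to dysf (signal 3.24) and from laf to Gnf1 (4.22). Each overlapped a second member, with a signal of 62.3 beside dysf and 72.5 beside laf, and a summit 203 bp away. All 13 members with a signal under 30 overlapped another member in this way, and the lowest signal of a member that overlapped no other was 39.8. Counted as loci, the 311 members made 297, of which 14 held 2 overlapping members. The replicate call is shared within such a pair, so the dysf and laf peaks each carry the replicate 2 support of their stronger neighbour.

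The strongest member, with a signal of 667, lay at chr2R:13035209-13035466 between Su(z)2 and CG13323. Its replicate signals were 258 in replicate 1 and 408 in replicate 2, and here and below the values of the 2 replicates are given in that order. They come from separate lists and are not on a common scale. A second member in the same gap had a signal of 43.3 and overlapped a thresholded peak of neither replicate. Both Su(z)2 and Psc encode related Polycomb group proteins, which repress developmental genes through chromatin. A member of signal 311 (125 and 188) lay 7752 bp from the end of Psc in the gap to CG13321, together with 2 others (120 and 59.04), and a further one (72.1, replicate 1 alone) lay on the other side of Psc. Another (263; 99.5 and 164) lay between RYBP, whose product binds Polycomb complexes, and Ppa. The strongest members in these 3 gaps were ranks 1, 4 and 8 of the 311. Polycomb genes were not among the lists compared, and these are described together after their values were seen. For the 3, the nearest coding TSS was that of CG13323 (11914 bp), CG13321 (4692 bp) and RYBP (7630 bp).

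The second strongest (525; 218 and 302) lay 3757 bp downstream of the TSS of CG31668, beyond its 3′ end. The one after it (394; 193 and 203) sat in a gap of 1340 bp between the 3′ ends of blw, an ATP synthase subunit, and CycB, the mitotic cyclin B. After the member beside Psc came one 12485 bp upstream of chinmo, a BTB zinc finger regulator (276; 120 and 152), and one 12873 bp upstream of CG13896 (268; 138 and 125). A member between the forkhead segmentation genes slp1 and slp2 had a signal of 268 (123 and 149), 4337 bp upstream of slp2. Each of these was well above the median member in both replicates, which was 33.1 in the ranked list of replicate 1 and 39.3 in that of replicate 2.

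The remaining ones of the 15 strongest had signals of 207 to 260. They lay between CG43131 and RabGGTa (260), upstream of sano at 3077 bp (239), upstream of foxo, the forkhead factor of insulin signalling, at 3355 bp (227), and in the gaps from hng3 to CG13898 (212), CG44362 to CG7560 (210), CG7320 to CheA75a (210) and Sol1 to Cyp9f2 (207). All 15 overlapped a thresholded peak of both replicates. The last of them sat in a gap of 437 bp, 1299 bp upstream of a TSS of DNAlig3, so a short gap between genes does not exclude a member.

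Distances to the nearest coding TSS ran from 1017 to 39996 bp with a median of 6448 bp (95% interval 5482 to 7682), against 9223 bp for the tiles. There were 44 members at 1 to 2 kb (14.1%, against 10.1% of tiles), 82 at 2 to 5 kb (26.4%, 21.9%), 78 at 5 to 10 kb (25.1%, 20.4%), 87 at 10 to 20 kb (28.0%, 18.9%) and 20 beyond 20 kb (6.43%, 28.7%). Among these bins the farthest was the one that held a smaller share of members than of tiles. Tiles cover all allowed sequence, including chromosome ends (5.51% of tiles and no member) and surroundings of transposable elements (7.04% of tiles and 1.93% of members). How well peaks can be called in such sequence, and its part in these differences, was not tested. The 44 nearest had a median signal of 82.3 (71.5 to 99.0) and 54.5% overlapped a peak of both replicates. The 20 farthest had 62.3 (54.5 to 76.8), and 4 of them overlapped a peak of both. The signal intervals of these end bins overlapped. In the bins between, from near to far, median signal was 67.4, 70.3 and 69.3. Of their members 28.0%, 32.1% and 35.6% overlapped a peak of both, so neither measure fell steadily with distance. The farthest 5 lay 39996 bp (signal 48.95) and 33853 bp (156) from the TSS of vvl, 39105 bp from CG6244 in its gap with comm (53.7), 35704 bp from CG31797 in its gap with drl (114) and 32502 bp from Aps (81.5). Here vvl encodes a POU factor of tracheal development, comm a regulator of midline crossing by axons, and drl a receptor for a Wnt ligand.

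**Figure D4:**
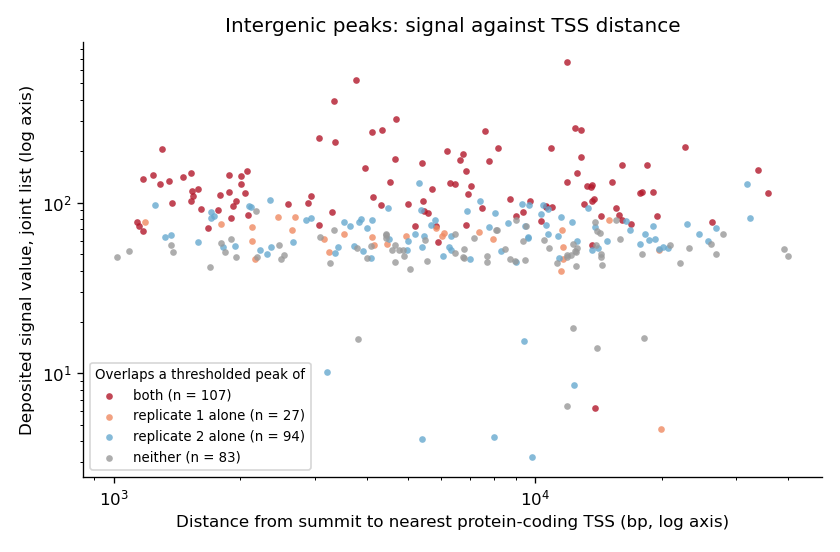
Deposited signal value in the joint list against distance from the summit to the nearest protein-coding TSS in bp, both on log axes, for 311 intergenic peaks coloured by replicate support. The 15 strongest members (signals 207 to 667) lie at 1299 to 22685 bp, and the 13 points under a signal of 30 all overlap another member.

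Members just inside the TSS margin lay at 1017 bp (out, signal 47.996), 1085 bp (CG34458, 52.2) and 1139 bp (soti, 76.8), and peaks just outside it at 993 bp (CG14207, 66.0), 991 bp (CG11964, 63.6) and 977 bp (CG43131, 61.7). At the ncRNA margin, members lay at 1041 to 1068 bp with signals of 62.3 to 128, and peaks left out at 928 to 978 bp with signals of 62.2 to 106. Members were upstream of the nearest coding gene in 177 cases (56.9%, 51.2 to 62.5%), against 57.7% of tiles. The flanking coding genes stood head to head in 86 (27.7%, 22.8 to 33.0%; tiles 22.9%), in the same direction in 152 (48.9%; 48.7%) and tail to tail in 73 (23.5%; 22.9%). The tile shares of the upstream position and of these 3 orientations lay inside the members' intervals. No member lay between a chromosome end and its outermost coding gene (0 of 311, interval up to 1.18%), where 5.51% of tiles lay. An annotated transposable element lay within 1000 bp of 6 members (1.93%) and of 7.04% of tiles.

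Members were unevenly spread over the chromosome arms. Per Mb of sequence that the rule allows, X held 5.76 (25 members, exact Poisson 95% interval 3.73 to 8.51), 3R 8.04 (52), 2R 8.93 (52), 2L 13.5 (72, 10.5 to 17.0) and 3L 14.5 (108, 11.9 to 17.5). The density on X was 0.509 of that on the 4 large autosomal arms together (0.324 to 0.766). Over all peaks, X had 23.4 per Mb of arm and the autosomal arms 21.0. Intergenic peaks were 4.55% of the 550 peaks on X (2.96 to 6.64%), against 12.4% of the 2284 on the autosomal arms (11.1 to 13.9%). The rule allowed 18.4% of the sequence of X and 23.0% of that of the autosomal arms. These shares of peaks therefore also depend on the allowed sequence, which the density ratio takes into account. In replicate 2's list alone the ratio was 0.584, and in replicate 1's alone 0.642 with an interval that reached 1.12. The labels state that the sex of the embryos was not collected. How well peaks can be called across the allowed sequence of each arm was not tested. Chromosome 4 had 2 members and Y none.

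**Figure D5:**
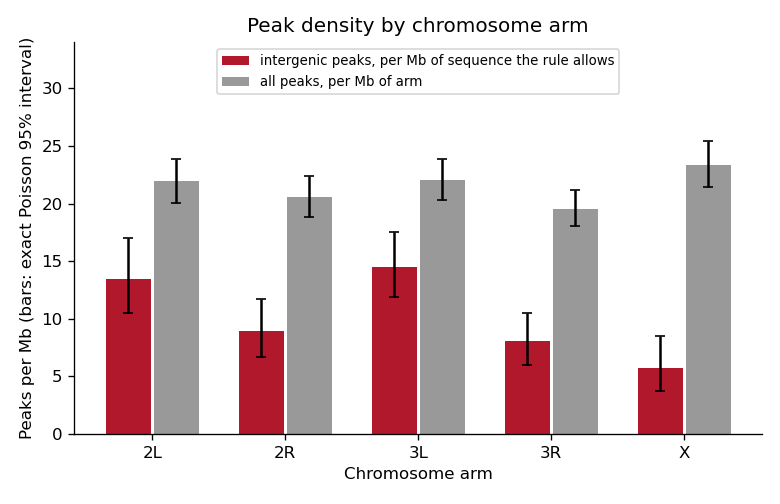
Intergenic peaks per Mb of sequence allowed by the rule, beside all peaks per Mb of arm, on 5 chromosome arms, with exact Poisson 95% intervals. Intergenic density is lowest on X (5.76) and highest on 3L (14.5), while all peaks vary between 19.6 and 23.4.

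The 311 members fell into 204 gaps between adjacent coding genes, of which 143 held 1 member and 61 held 2 or more. There were 10 gaps with 4 or more, and these held 56 members. The 3 fullest were all on 3L and each had flanking genes in the same direction. The gap from hng3 to CG13898 (47937 bp) held 9 members with signals of 8.49 to 212, 6 of them with both replicates. That from CG44362 to CG7560 (27292 bp) held 9, with signals of 15.5 to 210, 3 with both. That from CG7320 to CheA75a (48450 bp) held 8, with signals of 44.1 to 210, 4 with both. Counted as loci, each of these 3 gaps held 8. Without these 3 gaps 3L held 82 members, or 11.2 per Mb (8.91 to 13.9).

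The gap from RFeSP to chinmo (37097 bp) on 2L held 6 members with the highest median signal of the 10 gaps, 142. Their joint signals were 276, 177, 166, 118, 74.6 and 55.9. Replicate 1 gave 120, 72.3, 55.9, 55.1, 47.5 and 20.9 for these in the same order, and replicate 2 gave 152, 106, 106, 66.8, 24.5 and 49.7. The first 4 were thus supported by both replicates, and the other two by 1 replicate each. The remaining 6 gaps held 4 members each. Those from vvl to Prat2 (117057 bp, signals 48.95 to 156), NijA to CG43245 (57.0 to 152), Ids to sty (46.6 to 116) and scyl to Dyro (69.1 to 106) lie on 3L. The gap from 18w to CG11041 (59.4 to 96.9) lies on 2R, and that from CG43402 to CG31928 (6.23 to 83.4, 3 loci) on 2L. None of the 4 members beside 18w overlapped a peak of both replicates.

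Listed developmental genes were counted by whether they flanked a member. Of 319 matched genes in 21 lists, 58 were the first coding gene to the left or right of a member (18.2%, 14.1 to 22.9%), where 2.7% of 13945 coding genes were (377). By nearest TSS alone the shares were 10.3% and 1.58%. Listed genes also had longer gaps beside them, with a median longer gap of 7148 bp against 2070 bp for all coding genes and 21605 bp for genes that flank a member, and the part of gap length in these shares was not tested. The lists overlap and were drawn up with earlier results of these data known, so they are described by counts. Every list had at least 1 flanking gene.

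By list, the counts were 5 of 15 amnioserosa regulators, 5 of 11 Hox genes and cofactors, 8 of 24 segmentation genes, 3 of 4 of the odd-skipped family, 6 of 23 homeodomain regulators, 4 of 18 Wnt, 3 of 18 BMP and 5 of 20 EGF and FGF receptor signalling genes. The counts were 1 of 17 for the JNK cascade and dorsal closure, 2 of 19 for the Notch pathway, 1 of 10 for Hedgehog and 2 of 10 for JAK/STAT. The rest ran from 1 of 17 epithelial polarity genes and 1 of 16 ecdysone response genes to 2 of 8 cell death genes. Tracheal development had 3 of 15, gut development 2 of 10, neural fate 5 of 32, mesoderm and muscle 4 of 23, eye and imaginal disc development 4 of 24, and adhesion and axon guidance 3 of 20. With so few genes a list, most of the intervals are wide: that of the amnioserosa list ran from 11.8 to 61.6%.

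Among the amnioserosa regulators, the T-box genes Doc1 and Doc2 each flanked 3 members. The pair between them had signals of 178 (63.4 in replicate 1 and 116 in replicate 2) and 88.9 (replicate 2 alone, 50.3). A member 448 bp from the edge of Doc1, in the gap to Argk2, had a signal of 102 and both replicates. The homeobox genes tup (78.9, 8998 bp from its edge) and C15 (52.9, 6321 bp) flanked 1 member each. The gene peb itself flanked 1 member, at chrX:4614334-4614657, 3068 bp upstream of its TSS in a gap of 45634 bp. It had a signal of 74.4, rank 141 of the 311, with 38.9 in replicate 1 and 35.3 in replicate 2, so it had the support of both.

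Of the ligands and their modifiers, wg flanked 4 members and Wnt4 flanked 3, with the 3 in the gap between them at 94.4, 64.9 and 48.3. The strongest had 50.9 in replicate 1 and 45.9 in replicate 2, and the other two overlapped a thresholded peak of neither. The glypican gene dally flanked 2 that overlap each other and form 1 locus (10.1 and 54.9). The gene sty, an antagonist of receptor tyrosine kinase signalling, flanked the 4 in its gap. Of the receptors, ptc, which binds Hedgehog, flanked 1 (130, replicate 2 alone). The repressor gene aop, which acts below EGF receptor signalling, flanked 1 (141; 72.2 and 65.2), 1460 bp upstream of its TSS.

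Of the transcription factor genes, vvl flanked 6 members (18.5 to 156), drm 4 (69.2 to 113) and the head genes ems (55.0 to 97.8) and oc (48.4 to 87.3) 3 each. The Hox cofactor hth flanked 3, with signals of 6.47 to 59.4, and tsh, a zinc finger gene of trunk identity, 2 (16.04 and 49.8). The pair-rule gene hry (54.5 and 61.2) flanked 2, as did the odd-skipped genes odd and sob, which share the same 2 (54.1 and 68.8). The spalt genes salm and salr also share 2 (4.70 and 52.7). The T-box gene mid (56.4 and 131), the zinc finger gene nerfin-1 (49.7 and 81.0), the eye gene eya (15.97 and 47.6) and the tracheal gene dysf (3.24 and 62.3) flanked 2 each, and so did caps, an adhesion gene (53.98 and 79.1). The 2 members beside tsh, eya and dysf, and the 2 shared by salm and salr, overlap each other and form 1 locus each. So do 2 of the 6 beside vvl and 2 of the 3 beside hth. None of the members beside hth, tsh, hry, odd, sob, salm, salr, nerfin-1, eya, dysf, caps or dally overlapped a peak of both replicates. Those beside oc, vvl and sty included 2 each that did, and those beside wg, Wnt4, drm, ems and mid 1 each.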

How the data were processed

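ChIP-seq peak lists of 2 biological replicates were analysed. The authors deposited a joint thresholded list, a conservative list, and thresholded and ranked lists per replicate, and the file headers tie their calls to the replicates' alignments and a further file, treated here as the control. The assembly is dm6, per the labels. The aligner and peak caller are not given in the sources used here. The deposited signal is each peak's own value and the deposited score a scaled irreproducible discovery rate capped at 1000. No depth is given, so intervals cover the counting of peaks only.

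Summits were placed on Ensembl release 115 and the RefSeq genome of the same assembly. Overlap required 1 bp. Tiles were consecutive 201-bp windows of allowed sequence without Y. Intervals are exact binomial (Clopper-Pearson), exact Poisson or order-statistic at 95%, and no p-value was computed. Scripts were tested on simulated data and ran in Python 3.11.15 with pandas 2.3.3 and scipy 1.17.1. Members and lists were chosen with earlier results of these data known. The text names the 15 strongest members, the 5 farthest and the 3 weakest, of which 1 is not reported here, gaps with 4 or more members, listed genes flanking 2 or more, members at the margins and 5 6-mers. Other genes were named after their values were seen. There were 3 listed symbols without a match.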

Additional observations from a re-analysis of the deposited data

How the results depend on the processing

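The number of intergenic peaks was 311, and 251 to 361 under the other margins, the conservative list, a score of 1000 and merged loci. It was 140 to 220 in the list of 1 replicate alone. The median TSS distance was 5399 bp with a TSS margin of 500 bp, 7972 bp with one of 2000 bp, and 5377 to 6132 bp in the list of 1 replicate, against 6448 bp. With a score of 1000 the median signal was 78.6 and the share with both replicates 42.2%. That share was 49.1 to 77.9% in the list of 1 replicate, where the peak itself supplies 1 overlap. Windows of 50 bp and 200 bp either side, which hold fewer or more bases, gave 9.003% and 48.9% for GAGAG, 33.8% and 85.5% for the E-box, 10.9% and 34.4% for CGATA, 9.32% and 31.8% for ACAGTG and 4.50% and 14.8% for CACTGAGA, and a median GC content of 32.7% and 41.2%. In the list of 1 replicate the E-box share was 51.4 to 57.3%. Listed genes by nearest TSS alone gave 10.3%. After the data were seen, the X ratio was also tried under the margins, lists, score and merging (0.478 to 0.650), and 3L without its 3 fullest gaps gave 11.2 per Mb. The upstream share and the orientation shares stayed inside their intervals under every setting run. Median signal has no value in the lists of 1 replicate, whose scale differs. No paired analysis was possible because there is 1 group. Read depth is not in the lists, so how depth limits the replicate calls was not tested.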
